A study of Mus musculus with 12 samples.

Results

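The 10 genes described here encode enzymes that remove superoxide and peroxides, or that supply and support them. They are Sod1, Sod2, Cat, Gpx1, Gpx4, Prdx3, Prdx5, Hmox1, Nqo1 and Gclc, listed by name and matched by mouse symbol to Ensembl identifiers. All 10 were found among the 49548 genes counted in each library. Transcripts were counted in the lumbar spinal cord of 8 MFN2 and 4 WT mice at 30 days of age, with no treatment. MFN2 mice (labelled CMT2A, after the peripheral neuropathy Charcot-Marie-Tooth disease type 2A) are hemizygous MitoCharc1 animals, of a B6;D2 background with the transgene Tg(Eno2-MFN2*R94Q)L51Ugfm/J. They carry human MFN2 with the R94Q change, driven mainly in neurons by the rat Eno2 promoter, beside their own intact mouse Mfn2 genes. The labels give the WT mice as C57BL/6, while the study's methods describe WT littermates. The shallowest MFN2 library held 19359454 counts and the deepest 26738930, and the WT libraries spanned 19453238 to 23564568. The libraries are numbered in separate runs, 41 to 47 and 72 to 76. The first run holds 3 MFN2 and all 4 WT libraries, and the second run holds the other 5 MFN2 libraries, so that genotype and run cannot be told apart in the second.

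Reactive oxygen species arise mainly where electrons leak from the mitochondrial respiratory chain. Superoxide dismutases turn superoxide into hydrogen peroxide, catalase splits the peroxide into water and oxygen, and glutathione peroxidases and peroxiredoxins reduce it to water, mostly with glutathione or thioredoxin as the electron donor. NRF2, the product of Nfe2l2, is held in check by Keap1 and drives many genes of this defence, among them Hmox1, Nqo1 and Gclc. Spinal cord neurons and glia both depend on these enzymes, and dominant changes in human SOD1 cause a form of motor neuron disease.

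Before the enzyme genes were compared, each library was checked against genes that mark its tissue. Library 43, an MFN2 library, stood apart from the other 11. Its 4 caudal Hox genes, which mark the posterior cord, summed to 16.1 CPM (counts relative to the size of the library, after TMM scaling), against 72.1 to 109 CPM in the others. The 8 forebrain marker genes, led by Camk2a, summed to 4685 CPM there and to between 109 and 207 CPM in the others. Its 6 motor neuron genes, led by Prph, summed to 35.5 CPM, below the range of 154 to 370 CPM elsewhere. Signs of other tissue were also seen in MFN2 library 73 and WT library 47, where 3 skeletal muscle genes, led by Myh4, summed to 168 and 182 CPM, against 0.895 to 28.9 CPM in the other 10. Library 73 also had the highest sum of 5 red blood cell genes, led by Hbb-bs, at 333 CPM against 68.1 to 202 CPM elsewhere. Genes that mark the labelled tissue were thus present in 11 libraries and low in library 43. Several results that rest on library 43 are given with and without it, and others only with it. Xist, the transcript of the inactive X chromosome, was near 0 in the MFN2 libraries 41 and 43 and in the WT library 44, and lay between 258 and 402 CPM in the other 9. All 5 libraries of the second run were in the higher range.

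Levels were compared between the enzyme genes only per kilobase of transcript, as RPKM, with all annotated exons as the length. In the WT mice, Gpx4, which reduces lipid peroxides in membranes, had a level of 106 ± 14.7 RPKM (SD, n = 4). Prdx5 followed at 46.8 ± 4.69 RPKM, Cat at 42.5 ± 4.30 RPKM, Sod1 at 34.0 ± 2.69 RPKM and Gpx1 at 33.0 ± 2.26 RPKM. The ranges of each neighbouring pair from Prdx5 to Gpx1 overlapped, so their order was not resolved by 4 libraries. Prdx3 had 21.7 ± 1.92 RPKM, Sod2 17.6 ± 0.320 RPKM and Gclc 11.9 ± 0.505 RPKM, and the ranges of these neighbours did not overlap. The NRF2 targets Nqo1 (2.39 ± 0.441 RPKM) and Hmox1 (1.72 ± 0.105 RPKM) had the lowest levels of the 10, and rested on 53 to 95 counts in a WT library. With the length of the principal transcript instead, Sod1 moved from rank 4 to rank 1, at 211 ± 16.6 RPKM, ahead of Gpx4 at 191 ± 26.4 RPKM. Their ranges, 197 to 234 and 158 to 222 RPKM, overlapped, so that this first place was not resolved. The annotated exons of Sod1 span 3970 bases and its principal transcript 641, so that its place depends on this choice. Sod2 and Prdx3 also exchanged places, with Sod2 at 30.1 ± 0.547 RPKM above Prdx3 at 21.7 RPKM and again no overlap, so that their order depends on the length used as well.

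**Figure D1:**
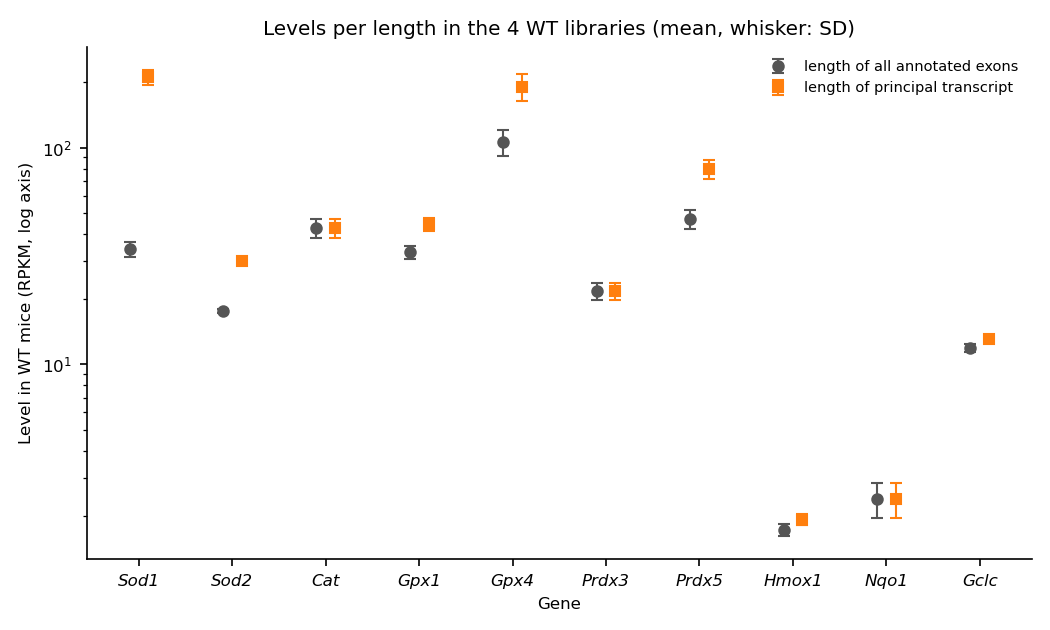
Level of each antioxidant enzyme gene in the 4 WT libraries, in RPKM on a log axis, with the mean and SD as point and whisker; circles use the length of all annotated exons and squares that of the principal transcript. Hmox1 and Nqo1 lie lowest under both lengths. Gpx4 has the highest mean with all exons and Sod1 with the principal transcript, where the ranges of these genes overlap.

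Gpx1 and Gpx4 are selenoproteins, in which a TGA codon is read as selenocysteine at the active site, and the stretches around that codon are shown because they set these members apart from the other 8 at the level of sequence. Both come from GENCODE M21 transcripts on GRCm38, with the codon in capitals.
Gpx1: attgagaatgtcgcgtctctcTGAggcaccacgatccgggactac
Gpx4: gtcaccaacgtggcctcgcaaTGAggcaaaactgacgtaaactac
The Gpx1 codon lies in exon 1 of 2, on the plus strand at chr9:108339451-108339453, and is codon 47 of 201. The Gpx4 codon lies in exon 3 of 7, on the plus strand at chr10:80054737-80054739, and is codon 73 of 197.

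Upstream sequence is shown for Sod1 and Prdx3, which were both lower in the comparison of the second run with WT given further on. Gpx1 and Prdx5, also lower there, are left out because more of their windows lies in annotated exons, of Gpx1 itself and of the neighbouring gene Trmt112. Sequences begin 250 bases before the RefSeq start on GRCm38.p6 and end before the first annotated base of the gene in GENCODE M21. They are 242 bases at chr16:90220512-90220753 (plus strand) for Sod1 and 232 bases at chr19:60874557-60874788 (minus strand) for Prdx3, 5′ to 3′ on the strand of the gene. Capitals mark matches, on either strand, to TGACNNNGC, the core of the antioxidant response element that NRF2 binds, and to the GC box GGGCGG.
Sod1: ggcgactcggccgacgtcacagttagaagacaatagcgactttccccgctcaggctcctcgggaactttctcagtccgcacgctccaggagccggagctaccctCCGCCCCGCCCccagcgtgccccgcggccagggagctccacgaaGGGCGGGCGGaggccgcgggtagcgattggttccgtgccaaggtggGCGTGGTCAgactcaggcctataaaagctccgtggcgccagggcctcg
Prdx3: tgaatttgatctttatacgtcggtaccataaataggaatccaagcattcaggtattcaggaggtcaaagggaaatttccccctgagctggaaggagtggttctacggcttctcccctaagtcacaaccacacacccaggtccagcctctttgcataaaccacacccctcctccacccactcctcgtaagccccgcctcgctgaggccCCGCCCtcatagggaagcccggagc
The RefSeq promoter table (300 bases a start, of which 50 lie after it) held 8 of the 10 members, all but Hmox1 and Gclc. TGACNNNGC was found in 1 of these 8, Sod1, where it reads GCGTGGTCA on the minus strand, 56 to 48 bases before the start. Of all 27025 genes in that table, 14.0% held it at 1 of their starts or more, as did 25.0% of 60 other antioxidant genes from the list used further on. GGGCGG was found in 8 of 8 members, against 38.2% of all genes and 71.7% of the 60. These are matches of letters, not binding sites.

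Whether the antioxidant enzyme genes differed between MFN2 and WT mice was asked first over all 12 libraries. None of the 10 passed an FDR of 0.05 in edgeR's quasi-likelihood test, and 0.0% of the 15942 genes tested did. The fold change was below 0 for 9 of the 10, against 49.2% of all genes tested, and the exception was Hmox1. The median log2 fold change of the 10 was -0.18, and that of all genes tested was 0.00. An unadjusted p under 0.05 was reached by 3 members, Prdx3, Gpx1 and Gpx4, each with the lower level in MFN2 mice, against 7.57% of all genes tested in that direction. DESeq2 called 1 member, Prdx3, and 1.25% of all genes tested. Without library 43 the count stayed at 0 members, and the median was -0.15.

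**Figure D2:**
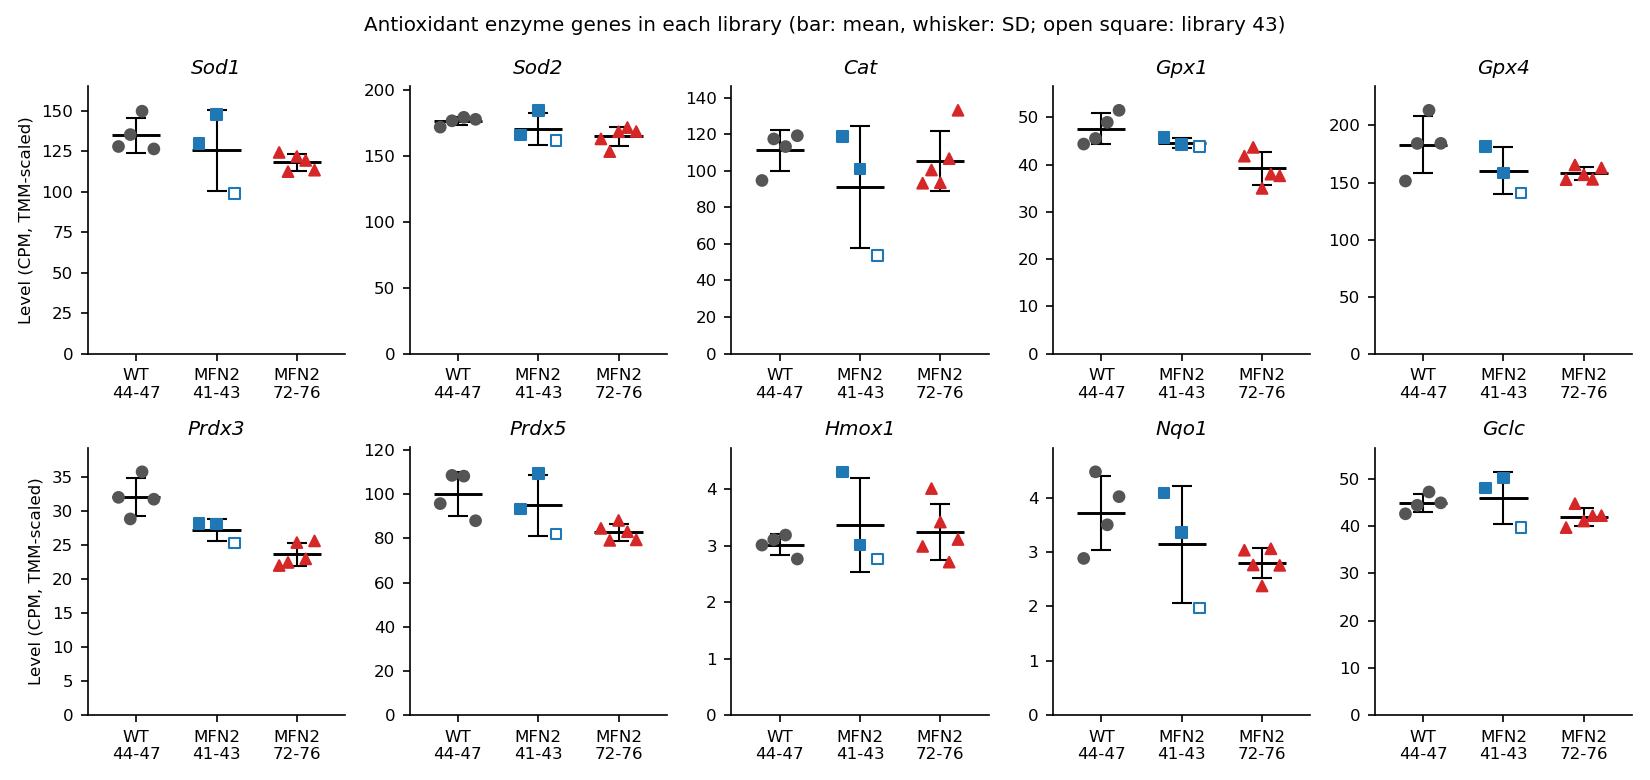
CPM of each of the 10 antioxidant enzyme genes, with 1 point a library for WT 44 to 47 (circles), MFN2 41 to 43 (squares, library 43 open) and MFN2 72 to 76 (triangles); bars are means and whiskers SDs. Prdx3 is lower in all 8 MFN2 libraries than in any WT library, and the other 9 genes overlap.

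The runs of library numbers gave different counts. The 5 MFN2 libraries of the second run had 4 members lower than in WT at an FDR of 0.05 (Sod1, Gpx1, Prdx3 and Prdx5) and 0 higher, against 12.2% of all genes tested that were lower and 11.4% that were higher. On library size only, 2823 genes were called higher and 1346 lower, in place of 1812 and 1941. Without library 73, 3 of the 4 members were called (all but Sod1), as were 3114 of the 15942 genes tested. Without WT library 47 the count was 4, and 3219 of all genes tested were called. With every library of this comparison 3753 were called. The 3 MFN2 libraries of the first run had 0 members called against the same WT libraries, and 0.00627% of all genes tested were called. All values of 4 members (Sod1, Sod2, Gpx1 and Prdx3) lay below the WT range in the second run, as for 10.2% of all genes tested. The fold change was below 0 for 9 of the 10 in the second run and 8 of the 10 in the first, against 49.2% and 50.3% of all genes tested. The median log2 fold change of the 10 was -0.20 in the second run and -0.08 in the first. Without library 43 the median in the first run was 0.01 and 4 of the 10 were below 0, in place of 8. Both comparisons use the same 4 WT libraries. Between the runs, within MFN2 mice, 0 of the 10 members passed the FDR, while 2.29% of all genes tested did. Without library 43, 3 members were called, all lower in the second run, where 7.3% of all genes tested were lower. They were Sod1 (log2 fold change -0.23), Prdx5 (-0.29) and Gclc (-0.23).

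Prdx3, the mitochondrial peroxiredoxin that removes most of the hydrogen peroxide formed in the matrix, showed the clearest separation of the 10. WT libraries 44 to 47 had 32.0, 28.8, 35.8 and 31.7 CPM. MFN2 libraries 41 to 43 had 28.2, 28.1 and 25.3 CPM, and libraries 72 to 76 had 22.0, 22.4, 25.3, 23.0 and 25.6 CPM. All 8 MFN2 values were below the lowest WT value, which held for 1 of 10 members and, in that direction, for 1.07% of all genes tested. Means were 25.0 ± 2.40 CPM in MFN2 mice (SD, n = 8) and 32.1 ± 2.84 CPM in WT mice (SD, n = 4), a log2 fold change of -0.36 ± 0.085 (SE) with an edgeR FDR of 0.254. In the second run alone Prdx3 fell by 0.44 on the log2 scale (edgeR FDR = 0.00207), and it passed the FDR under each alternative run for that comparison. In the first run the log2 fold change was -0.22 ± 0.098 (edgeR FDR = 0.635), with all 3 MFN2 libraries below the WT range, a pattern held by 4.28% of all genes tested. That fold change ranged from -0.27 to -0.17 with 1 library left out.

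Prdx5, a peroxiredoxin found in mitochondria, peroxisomes and cytosol, had 95.8, 109, 108 and 88.0 CPM in WT libraries 44 to 47. Libraries 72 to 76 had 84.5, 79.1, 88.1, 83.0 and 79.3 CPM, and libraries 41 to 43 had 93.4, 109 and 82.1 CPM. The second run was low with 4 of 5 libraries under the WT range, while the first run spanned that range. Prdx5 fell by 0.27 ± 0.067 on the log2 scale in the second run against WT (edgeR FDR = 0.0129), a call lost with all 3 groups in 1 fit (edgeR FDR = 0.0796). Over all 12 libraries its log2 fold change was -0.20 ± 0.092 (edgeR FDR = 0.339). The Prdx5 locus overlaps Trmt112 on the opposite strand, and the strand setting of the counts is not given in the sources used here, so that reads of the pair may be shared.

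Among the superoxide dismutases, Sod1, the copper and zinc enzyme of the cytosol, had 128, 135, 150 and 127 CPM in WT libraries 44 to 47. It had 124, 112, 122, 119 and 113 CPM in libraries 72 to 76, all below the WT range, and 130, 148 and 98.9 CPM in libraries 41 to 43. The first run thus held both a value near the highest WT library and, in library 43, the lowest of the 12. Sod1 fell by 0.19 ± 0.059 on the log2 scale in the second run against WT (edgeR FDR = 0.0388). That call was lost under 8 of the alternatives. Among them were leaving out WT library 45 or 46 or MFN2 library 73, 74, 75 or 76. Over all alternatives, DESeq2 and limma-voom included, the FDR ran from 0.0163 to 0.261. Sod1 overlaps Scaf4 on the opposite strand. Sod2, the manganese enzyme of the mitochondrial matrix, had 172 to 179 CPM in WT mice and 153 to 171 CPM in the second run. These ranges did not overlap, yet the log2 fold change of -0.09 ± 0.046 did not pass the test (edgeR FDR = 0.160). Library 42, with 185 CPM, was the highest for Sod2.

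Of the peroxide-reducing enzymes outside the peroxiredoxins, Gpx1, the glutathione peroxidase of cytosol and mitochondria, had 44.4, 45.5, 49.0 and 51.5 CPM in WT libraries 44 to 47. Libraries 72 to 76 had 41.8, 43.6, 35.0, 38.0 and 37.6 CPM, all below both the WT libraries and libraries 41 to 43, which had 45.8, 44.3 and 43.8 CPM. Gpx1 fell by 0.28 ± 0.071 on the log2 scale in the second run against WT (edgeR FDR = 0.0155). Between the MFN2 runs its log2 fold change was -0.20 ± 0.083 (edgeR FDR = 0.193), and in the first run against WT -0.08 ± 0.081 (edgeR FDR = 0.739). Gpx4 had 151 to 213 CPM in WT mice, with library 44 the lowest, and 152 to 165 CPM in the second run. Its log2 fold change there was -0.21 ± 0.078 (edgeR FDR = 0.0681), and -0.30 without WT library 44 (edgeR FDR = 0.00287). With 1 library left out it ranged from -0.30 to -0.14, and Gpx4 passed under 3 of the 20 alternatives. Cat, the peroxisomal catalase, did not separate the groups, with 94.7 to 119 CPM in WT mice and 93.1 to 133 CPM in the second run (log2 fold change -0.07 ± 0.106, edgeR FDR = 0.654). With 1 library left out that value ranged from -0.17 to -0.04. Library 43 held 53.7 CPM of Cat against 101 and 119 CPM in libraries 42 and 41.

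The remaining members are known NRF2 targets, and none of them passed the FDR in any of the 4 comparisons as fitted. Hmox1, which breaks down heme, had a median of 3.06 CPM over the 12 libraries, a lowest value of 2.71 CPM and a highest of 4.31 CPM. It was the 1 member above 0 in the 12-library comparison, with a log2 fold change of 0.12 ± 0.152 (edgeR FDR = 0.693), which was 0.052 without library 41. Nqo1, a quinone reductase, had 3.72 ± 0.685 CPM in WT mice (SD, n = 4) and 2.92 ± 0.636 CPM in MFN2 mice (SD, n = 8). Its log2 fold change of -0.34 ± 0.187 was similar in size to that of Prdx3, but its standard error was larger and the edgeR FDR was 0.385. That fold change ranged from -0.45 to -0.24 with 1 library left out. In the second run against WT, the log2 fold change of Nqo1 was -0.41 ± 0.164 (edgeR FDR = 0.0910). It passed under 1 of the 20 alternatives, without WT library 44 (log2 fold change -0.52, edgeR FDR = 0.0304). With 1 library left out it ranged from -0.52 to -0.31. Gclc, the catalytic subunit of the enzyme that limits glutathione synthesis, had 44.8 ± 1.90 CPM in WT mice and 43.5 ± 3.87 CPM in MFN2 mice, a log2 fold change of -0.04 ± 0.073 (edgeR FDR = 0.788). Nfe2l2 itself had a log2 fold change of -0.24 ± 0.172 (edgeR FDR = 0.499), or -0.15 without library 43, and Keap1 one of -0.01 ± 0.066 (edgeR FDR = 0.956).

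**Figure D3:**
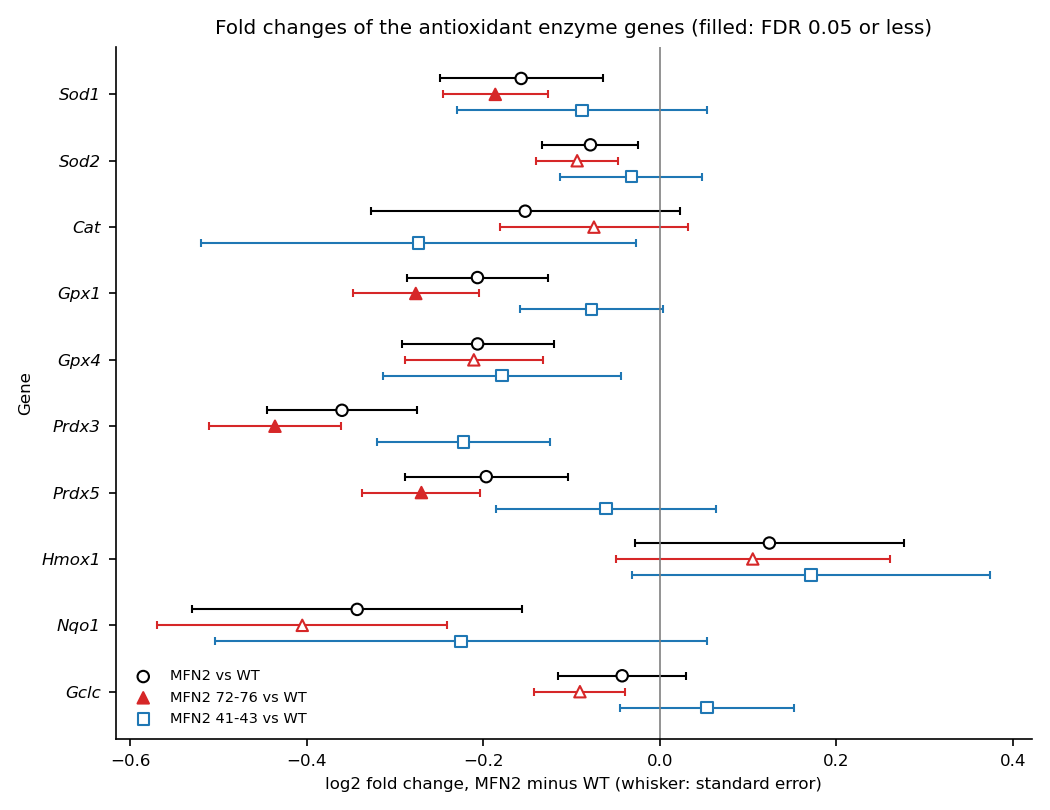
Log2 fold change of each antioxidant enzyme gene with its standard error as whisker, for all MFN2 libraries (circles), libraries 72 to 76 (triangles) and libraries 41 to 43 (squares), each against the same 4 WT libraries; filled symbols have an FDR of 0.05 or less in edgeR. The filled symbols are Sod1, Gpx1, Prdx3 and Prdx5 in the second run.

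Mouse Mfn2 and Eno2, which the transgenic animals keep beside the added human gene, were compared as well, although their levels do not check the labels. Mouse Mfn2 had 206 ± 12.8 CPM in MFN2 mice (SD, n = 8) and 213 ± 15.1 CPM in WT mice (SD, n = 4), a log2 fold change of -0.05 ± 0.065 (edgeR FDR = 0.733). Eno2, a neuronal glycolytic enzyme, had a log2 fold change of -0.12 ± 0.068 (edgeR FDR = 0.392). The human transgene was not analysed here, so the genotype labels were not checked.

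The members were then set beside 68 other genes of the same defence, of which 67 were tested (Gpx2 did not pass the filter). Over the 12 libraries 0 of the 67 were called by edgeR, 15 had an unadjusted p under 0.05 (15.0% of all genes tested did), and DESeq2 called 0. Each of the 15 was lower in MFN2 mice, a direction and p reached by 7.57% of all genes tested. The median log2 fold change was -0.11. In the second run against WT, 24 of the 67 were called, 19 lower and 5 higher, and the median was -0.10. The share called was 35.8%, where 23.5% of all genes tested were called. Without WT library 46, 14 of the 67 were called, or 20.9%, against 15.6% of all genes tested. In the first run 0 were called. When all 3 groups entered 1 fit, the second run had 5 of the 67 called, or 7.46%, and 2 of the 10 members (Gpx1 and Prdx3), where 7.68% of all genes tested were called. The share of the 67 was thus above that of all genes in the first of these fits and not in the fit of 3 groups. The 5 were Gstp1, Mgst3, Ftl1, Mt3 and Gsr, and the other 19 calls, all named in what follows, were lost in that fit (edgeR FDR from 0.0520 to 0.372).

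Among genes that handle glutathione, 7 of the 12 tested beside Gclc were called in the second run, 5 lower and 2 higher, where 12.2% of all genes tested were lower and 11.4% higher. Gstp1 and Gstm1, which join glutathione to electrophiles, fell by 0.53 ± 0.072 and 0.39 ± 0.067 on the log2 scale (edgeR FDR = 0.000663 and 0.00208). Gstp1 had 29.2 to 33.5 CPM in WT mice and 20.0 to 23.6 CPM in libraries 72 to 76, with no overlap. Mgst1 and Mgst3, membrane-bound relatives, fell by 0.48 and 0.36 (edgeR FDR = 0.0139 and 0.00747). Gsr, which regenerates reduced glutathione with NADPH, moved the other way. It had 33.7, 33.0, 30.4 and 31.7 CPM in WT libraries 44 to 47, 32.3, 29.3 and 28.0 CPM in libraries 41 to 43, and 39.7, 39.5, 40.0, 40.0 and 37.8 CPM in libraries 72 to 76. The second run was above both other groups, and Gsr rose by 0.30 ± 0.052 on the log2 scale against WT (edgeR FDR = 0.00238) and by 0.39 ± 0.070 against the first MFN2 run (edgeR FDR = 0.0361). The second call was lost under 8 of 19 alternatives (FDR up to 0.118), and without library 43 the difference was 0.35 (edgeR FDR = 0.00696). Gsta4, named after its value was seen, was the other gene of this list that rose in the second run (0.26, edgeR FDR = 0.0287).

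The cystine transporter gene Slc7a11, which feeds glutathione synthesis, had 71.4 CPM in library 43 and 33.7 and 21.7 CPM in libraries 41 and 42, against 13.9 to 20.5 CPM in libraries 72 to 76 and 20.1 to 30.4 CPM in WT mice. Library 43 stood far above the rest. The log2 fold change of Slc7a11 was 0.20 ± 0.411 over 12 libraries (edgeR FDR = 0.828), and without library 43 it was -0.21. In the second run alone Slc7a11 fell by 0.45 ± 0.143 (edgeR FDR = 0.0410), a call that passed under 10 of the 20 alternatives run. In the first run its log2 fold change was 0.90 ± 0.381 (edgeR FDR = 0.635), and between the MFN2 runs it was -1.34 ± 0.329 (edgeR FDR = 0.0699). Without library 43 these values were 0.28 (edgeR FDR = 0.936) and -0.73 (edgeR FDR = 0.0258).

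Iron and metal binding genes held the member of the wider list with the lowest fold change. Fth1, the ferritin heavy chain, which stores iron and keeps it from reacting with peroxide, had 1326, 2542, 2173 and 2371 CPM in WT libraries 44 to 47. It had 848, 1016, 888, 1020 and 1349 CPM in libraries 72 to 76, and 2335, 1734 and 679 CPM in libraries 41 to 43. WT library 44 lay within the range of the second run, and Fth1 fell by 1.03 ± 0.201 there (edgeR FDR = 0.00810). Over the 12 libraries its log2 fold change was -0.77 ± 0.298 (edgeR FDR = 0.289), and from -0.97 to -0.67 with 1 library left out. Ftl1, the ferritin light chain, fell by 0.39 ± 0.072 in the second run (edgeR FDR = 0.00301), with 22.5 to 28.8 CPM against 32.5 to 35.6 CPM in WT mice. The metallothioneins Mt1 and Mt3 fell by 0.45 ± 0.090 and 0.29 ± 0.062 (edgeR FDR = 0.00555 and 0.00590). Nqo2, named after its value was seen, fell as well (0.33, edgeR FDR = 0.0187). Of the 9 genes tested in this list beside Hmox1 and Nqo1, 5 were thus called lower and 0 higher. Of all genes tested 12.2% were called lower and 11.4% higher.

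Beside Prdx3 and Prdx5, 1 of 5 peroxiredoxin list genes was called in the second run, near the 23.5% of all genes tested. Prdx6, which reduces phospholipid peroxides, fell by 0.36 ± 0.055 (edgeR FDR = 0.00102), with 110 to 124 CPM against 136 to 158 CPM in WT mice. The thioredoxin and glutaredoxin system had a count near the background, where 12.2% of all genes tested were called lower and 11.4% higher. Of its 10 genes, 2 were called lower and 0 higher. Txn2, the mitochondrial thioredoxin that serves Prdx3, fell by 0.21 ± 0.047 (edgeR FDR = 0.00743). Glrx5, which acts in iron-sulfur cluster assembly, fell by 0.49 ± 0.101 (edgeR FDR = 0.00563). Glrx2 was among the 3 largest positive fold changes of the wider list over the 12 libraries, at 0.17 ± 0.089 (edgeR FDR = 0.359). Mutyh, a DNA repair glycosylase, was another, at 0.24 ± 0.305 (edgeR FDR = 0.707; from 0.11 to 0.35 with 1 library left out), and rested on 0.534 to 2.01 CPM.

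Of the other lists, 2 of 6 genes of NADPH supply were called lower in the second run and 1 was called higher. G6pdx, the first enzyme of the pentose phosphate pathway, fell by 0.23 ± 0.054 (edgeR FDR = 0.0105). The remaining genes in this paragraph were named after their values were seen. Pgd, which follows G6pdx in that pathway, fell by 0.22 (edgeR FDR = 0.0208), and Idh1, the cytosolic NADP-dependent isocitrate dehydrogenase, rose by 0.29 (edgeR FDR = 0.0262). Ccs, which loads copper into Sod1, fell by 0.29 ± 0.088 (edgeR FDR = 0.0321), with 6.46 to 7.44 CPM in the second run and 8.12 to 8.90 CPM in WT mice. Of 6 genes for selenoprotein synthesis, Secisbp2 and Pstk were called higher, by 0.27 and 0.21 (edgeR FDR = 0.0240 and 0.0433), and 0 were called lower. In the NRF2 control list, Mafk was the 1 gene of 6 called lower, by 0.34 (edgeR FDR = 0.0327). In the repair list, Msrb1 and Park7 were called lower, by 0.34 and 0.18 (edgeR FDR = 0.0267 and 0.0326), 2 of 8. Of all genes tested 12.2% were called lower and 11.4% higher in this comparison, and these lists hold at most 8 genes each.

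**Figure D4:**
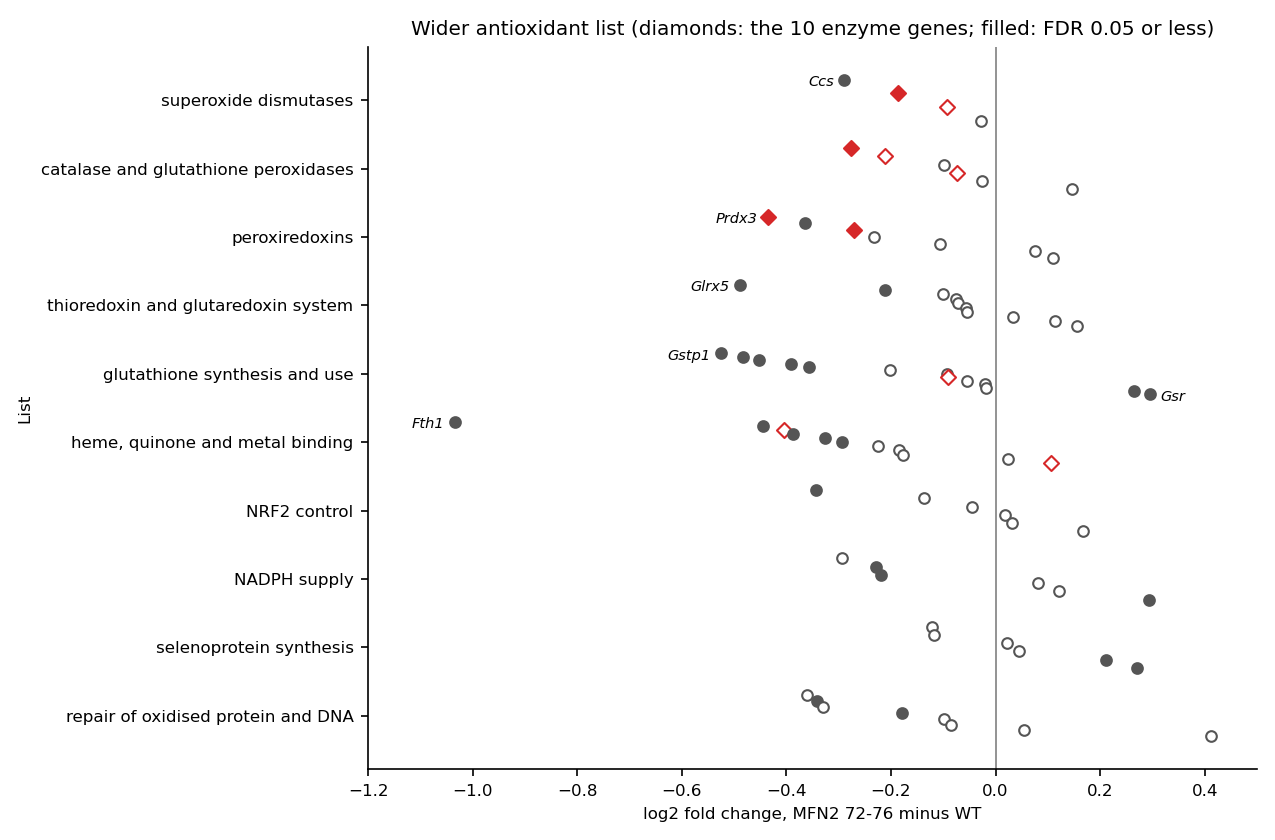
Log2 fold change of each tested gene of the wider antioxidant list in MFN2 libraries 72 to 76 against WT, 1 row a list, with the 10 enzyme genes as diamonds and the others as circles; filled symbols have an FDR of 0.05 or less in edgeR. Fth1 lies lowest at -1.03, and Gsr is among the 5 filled circles above 0.

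**Figure D5:**
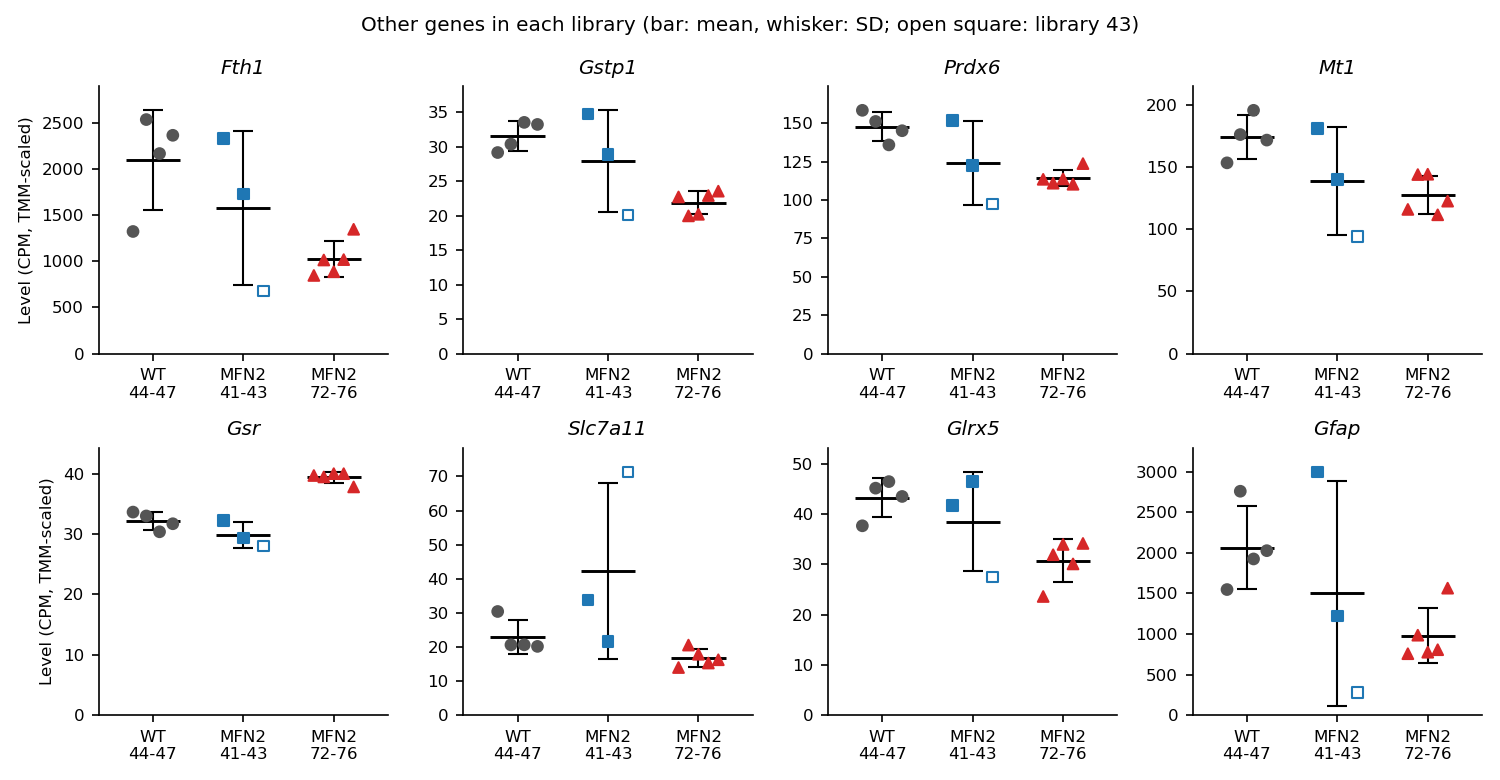
CPM of 7 genes of the wider antioxidant list and of the astrocyte gene Gfap, with 1 point a library, grouped as WT 44 to 47, MFN2 41 to 43 (library 43 open) and MFN2 72 to 76; bars are means and whiskers SDs. Gstp1, Prdx6, Mt1 and Glrx5 are below the WT range in all 5 libraries 72 to 76, and Gsr is above it.

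Marker genes of glia moved in the same comparison. In the second run, 4 of 6 astrocyte genes (Gfap, Slc1a2, Aldh1l1 and Gja1) were called lower than in WT. So were 5 of 6 microglia genes (Cx3cr1, P2ry12, Tmem119, Csf1r and C1qa). From either list 0 were called higher. Of all genes tested in this comparison, 12.2% were called lower and 11.4% higher. The astrocyte genes, led by Slc1a2, summed to 6992, 7751, 6774 and 7087 CPM in WT libraries 44 to 47. They summed to 4963, 5327, 5110, 4995 and 6380 CPM in libraries 72 to 76 and to 8465, 5978 and 5761 CPM in libraries 41 to 43. Every library of the second run was thus below the WT range. The microglia genes, led by Csf1r, summed to 107, 144, 125 and 131 CPM in WT libraries, 97.0, 92.9, 93.9, 80.0 and 103 CPM in libraries 72 to 76, and 168, 105 and 169 CPM in libraries 41 to 43. None of these 12 genes was at 0 in a group. Gfap fell by 1.08 on the log2 scale (edgeR FDR = 0.0219), from 2066 ± 508 CPM in WT mice (SD, n = 4) to 978 ± 341 CPM (SD, n = 5). Motor neuron genes summed to 178 to 370 CPM in WT mice and to 200 to 263 CPM in the second run, and 0 of 6 were called. The oligodendrocyte precursor genes, led by Gpr17, summed to 190 to 223 CPM in WT mice and to 231 to 265 CPM in the second run, with no overlap. Of the 3 genes, 2 had a fold change above 0 and 1, Cspg4, below it. Cspg4 had 34.5 to 43.5 CPM in WT mice and 33.4 to 38.8 CPM in the second run. Gpr17 rose by 0.41 (edgeR FDR = 0.00694), 1 of 3 genes of that list called, and 0 of 6 oligodendrocyte genes were called. In other marker lists, Cldn5 was the 1 of 4 endothelium genes called lower, by 0.81 (edgeR FDR = 0.00693). The fold change was below 0 for 3 of these 4, while their mean sum was 145 CPM in the second run and 135 CPM in WT mice. Alas2, 1 of 5 red blood cell genes, was called higher, by 1.18 (edgeR FDR = 0.0474). So were the neuronal gene Syt1, 1 of 5 (0.48, edgeR FDR = 0.0340), and the forebrain gene Nrgn, 1 of 7 tested (0.58, edgeR FDR = 0.00543). Fold changes were above 0 for 5 of 5 red blood cell genes and 6 of 7 forebrain genes. They were below 0 for 3 of 5 neuronal genes, whose mean sum was 2733 CPM in the second run and 2932 CPM in WT mice. Red blood cell genes summed to 333 CPM in library 73 and to 117 to 178 CPM in the other libraries of the second run. In WT mice their sum was 68.1 to 202 CPM. Fewer cells of a type and less RNA per cell cannot be told apart in whole tissue, and the part of the marker genes in the antioxidant values was not tested.

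The members also varied unequally among mice. Among MFN2 mice the coefficient of variation ran from 5.41% for Sod2 to 23.1% for Cat. Without library 43 that of Cat was 13.7%, and the highest was that of Nqo1, at 17.9%. In WT mice it ran from 1.82% for Sod2 to 18.4% for Nqo1. Library 43 held the lowest value for 4 of the 10 members (Sod1, Cat, Gpx4 and Nqo1) and the highest for 0. Across the 12 libraries, log2 CPM of Sod1 and Prdx5 correlated most among the 45 pairs of members (Pearson r = 0.88, and 0.95 without library 43), while Hmox1 and Sod2 gave r = -0.44 (-0.59 without library 43). These coefficients are descriptions over libraries that share genotype, run and tissue composition.

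Of all genes tested, those most like Sod1 over the 12 libraries were Efr3b (r = 0.97) and Ankef1 (r = 0.96). Without library 43 these values were 0.95 and 0.93. Prima1 and Rnf13 were most like Cat (r = 0.98 for both), and these values were 0.93 without library 43. Gpx4 was most like Sema7a and Rpl36 (r = 0.92 for both), and Hmox1 most like Trim21 and Smn1 (r = 0.85 for both). Without library 43 the values of Gpx4 were 0.91 and 0.93, and those of Hmox1 were 0.83 for both. Transcript length was another property shared by most members. Sod1, Gpx1, Gpx4, Prdx3, Prdx5, Hmox1 and Nqo1, 7 of the 10, fall among the 3978 tested genes with the shortest principal transcripts (1930 bases or less). Among these the median log2 fold change of all genes in the second run was -0.04 and 15.2% were called lower, against 0.03 and 9.64% among the 3975 genes with the longest (4523 bases or more). The part of length in the members' values was not tested.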

How the data were processed

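RNA of the lumbar spinal cord was sequenced with 1 library per mouse. The authors trimmed adapters, aligned the reads with STAR (bcl2fastq and edgeR are also named in the submitters' processing notes) and deposited raw read counts per Ensembl gene on GRCm38.p6, with no normalization. Neither the counter nor how it treated strand is given in the sources used here, so that counts of overlapping genes and pseudogenes are uncertain. The labels and the study's methods name different SMARTer kits. Of 49548 genes, 49289 matched a symbol in GENCODE M21, and genes of the mitochondrial chromosome numbered 0.

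Counts were scaled by TMM, and the 15942 genes above 1 CPM in at least 3 libraries entered edgeR's quasi-likelihood test (version 4.0.16, R 4.3.3; legacy form, robust dispersion). P-values were adjusted over all of them by Benjamini-Hochberg, at an FDR of 0.05. Comparisons of subsets used the same genes with TMM recomputed. Standard errors were derived from the F statistic, and log2 CPM for correlations used a prior count of 2. RPKM used TMM-scaled CPM. Depths of 19359454 to 26738930 counts leave genes near 1 CPM with few counts and low precision. The procedure was also tried on simulated counts, with larger fold changes than those of the members and no difference between runs of library numbers. The simulation therefore gives no measure of how well changes as small as the members' are found.

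The members and the lists were chosen with earlier results of these data known. Genes named are the 10 members, Nfe2l2, Keap1, Mfn2 and Eno2, the 3 highest and 3 lowest fold changes of the wider list over 12 libraries, up to 12 of its calls with the lowest p in the second run, and the 2 genes most like each of 4 members. Genes outside this rule are said in the text to be named after their values were seen, except Gpx2, Xist, genes that overlap a member and marker genes. DESeq2 1.42.0, limma 3.58.1, further filters and scalings, covariates for Xist or for the run, all 3 groups in 1 fit, and the omission of each library served as alternatives. Promoter sequences came from RefSeq, and 0 columns of unassigned samples were present. Mice were the replicates, and whether they shared litters is not given.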

Additional observations from a re-analysis of the deposited data

Results flagged for a closer look

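Sample values far from the rest of their group were looked for in 60 groups by Dixon's ratio, the gap to the nearest value divided by the range of the group. Chance gives about 1 in 20, or 3 here, and 6 were found, 3 of them in library 43. In MFN2 mice (n = 8), Prdx5 had 109 CPM in library 42, the highest of the group, with a ratio of 0.529. Keap1 had 39.8 CPM in library 43 (ratio 0.586), Slc7a11 had 71.4 CPM in library 43 (ratio 0.655) and G6pdx had 22.1 CPM in library 43 (ratio 0.653). Mgst1, a membrane-bound glutathione transferase, had 10.3 CPM in library 41 (ratio 0.598). In WT mice (n = 4), Slc7a11 had 30.4 CPM in library 44, against 20.1 to 20.6 CPM in the other libraries (ratio 0.955).

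Gsr, which regenerates reduced glutathione, differed between the runs of library numbers within MFN2 mice. Its level was higher by 0.39 on the log2 scale in libraries 72 to 76 than in libraries 41 to 43 (edgeR FDR = 0.0361), and all 5 values of the second run were above all 3 of the first. That call was lost under 8 of 19 alternatives, with FDR from 4.31e-05 to 0.118 and a log2 difference from 0.35 to 0.45 over all of them. Without library 43 the difference was 0.35 (edgeR FDR = 0.00696). The part of Xist was not tested.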

How the results depend on the processing

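No paired analysis was possible because the sources used here give no pairing of mice between the genotypes. Prdx3 passed in the second run under all 20 alternatives, and Gpx1 and Prdx5 under 19 each. Without TMM, on library size only, 2 members were called in the second run (Prdx3 and Prdx5) and 4169 genes of the table, 1346 of them lower, and with all 3 groups in 1 fit also 2 (Gpx1 and Prdx3), while 1224 genes of the table were called. DESeq2 called 200 genes over the 12 libraries (1 member), 4245 in the second run (5 members) and 4 in the first run. Between the MFN2 runs it called 1775, where the fit of 3 groups called 1339. Xist as a covariate gave 4 genes over the 12 libraries, the first run alone 1 and the second run alone 3753 (4 members). In the first run, no filter, limma-voom and the fit of 3 groups each gave 0. The causes were not tested.

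With 1 library left out, genes called ranged from 0 to 19 over the 12 libraries (19 without library 43, 7 without 41), from 2355 (without 45) to 4517 (without 44) in the second run, from 0 to 2 in the first, and from 26 (without 74) to 2325 (without 43) between the MFN2 runs. Members called ranged from 3 to 6 in the second run (6 without 44) and from 0 to 3 between the MFN2 runs (3 without 43). Wider list genes called in the second run ranged from 14 (without 46) to 28 (without 76).

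Some fold changes changed sign, none of them past the FDR except where named. Over the 12 libraries, Gclc became 0.0073 on library size only, 0.038 with the run as a covariate and 0.053 in the first run. For these settings Keap1 became 0.041, 0.055 and 0.071, and Mfn2 0.0037, 0.035 and 0.051. With the run as a covariate and in the first run alone, Mutyh became -0.093 and -0.077, Gsr -0.11 and -0.093, Ftl1 0.087 and 0.10, and Txn2 0.099 and 0.12. Slc7a11 became -0.011 with limma-voom and, past the FDR, -0.45 in the second run alone. Keap1 in the second run became 0.022 on library size only. Gpx4 between the MFN2 runs became 0.012 with upper-quartile scaling and 0.030 on library size only.

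With 1 library left out, Keap1 ranged from -0.043 to 0.014 and Slc7a11 from -0.21 to 0.36 over the 12 libraries. Gclc ranged from -0.075 to -0.016 and mouse Mfn2 from -0.090 to -0.012 in that comparison. In the first run against WT, Sod1 ranged from -0.23 to 0.055, Sod2 from -0.096 to 0.0027, Prdx5 from -0.18 to 0.031, Hmox1 from -0.039 to 0.29, Nqo1 from -0.45 to 0.015 and Gclc from -0.018 to 0.14. Gpx1 ranged from -0.11 to -0.038 there. Between the MFN2 runs, Sod1 ranged from -0.23 to 0.025, Cat from -0.062 to 0.42, Gpx4 from -0.11 to 0.045, Hmox1 from -0.18 to 0.13 and Nqo1 from -0.41 to 0.033. Of the values of named genes under alternatives other than leaving out 1 library, 910 kept their direction and their side of the threshold, 21 passed the FDR only under the alternative, 15 no longer passed, and 22 changed sign. Hmox1, Nqo1 and Mutyh rest on the fewest counts of the members and the tested, named genes of the wider list. Depth limits the precision of their values.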

Other observations

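Nnt, the mitochondrial transhydrogenase that makes NADPH and so serves glutathione and thioredoxin in the matrix, was singled out after its values were seen. It had 10.3, 11.7 and 11.2 CPM in MFN2 libraries 72, 73 and 74, and 20.8 and 26.9 CPM in libraries 75 and 76. WT libraries 44 to 47 had 16.3, 13.7, 14.9 and 14.4 CPM, and MFN2 libraries 41 to 43 had 12.2, 15.8 and 14.2 CPM. Libraries 75 and 76 were thus above, and 72 to 74 below, each of the other 7. The log2 fold change of the second run against WT was 0.12 ± 0.294 (edgeR FDR = 0.803). The C57BL/6J strain is known to carry a deletion within Nnt, and whether these mice carry it was not tested.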
